A study of Mus musculus with 3 samples.

Results

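Lef1, Tcf7, Tcf7l1, Tcf7l2 and Ctnnb1, the 4 genes of the LEF/TCF family and the gene of beta-catenin, were followed by cell class in developing mouse back skin. They were chosen by name and not by their values, and all 5 were among the 19165 genes of the expression table. The skin came from male C57BL/6 mice without any mutation or treatment, on the embryonic days named E13.5 and E16.5 and at birth (P0), and animals of a stage were pooled. Each stage gave 1 library of droplet-based 3′ single-cell RNA sequencing, in which each captured transcript is counted once by a unique molecular identifier (UMI). Embryonic skin was digested with trypsin and newborn skin with collagenase IV, so stage, library and digestion cannot be told apart. The question asked was where in the hair follicle and the dermis Lef1 transcripts take the place of Tcf7l1 and Tcf7l2 transcripts.

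LEF/TCF proteins bind DNA at Wnt target genes and recruit beta-catenin when the Wnt pathway is active, and they hold these genes down together with Groucho/TLE co-repressors when it is not. TCF3 and TCF4, encoded by Tcf7l1 and Tcf7l2, are known mainly as repressors in skin epithelium and mark the outer root sheath and the stem cells of the follicle, whereas LEF1 is known from the placode, the hair matrix and the dermal papilla. Beta-catenin, encoded by Ctnnb1, is both the co-activator of these factors and a part of adherens junctions, so its transcript level does not by itself report Wnt activity.

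In GENCODE vM21 on GRCm38, Lef1 is at chr3:131110471-131224356 on the plus strand, Tcf7 at chr11:52252371-52283014 on the minus strand and Tcf7l1 at chr6:72626378-72789254 on the minus strand. Tcf7l2 is at chr19:55741820-55933654 on the plus strand and Ctnnb1 at chr9:120929216-120960507 on the plus strand. The 3′ end of Tcf7, the part read by this chemistry, lies within the long noncoding gene Gm26551 on the same strand, and the 3′ end of Ctnnb1 is overlapped on the opposite strand by Ulk4. The part of this overlap in their counts was not tested.

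LEF/TCF proteins are known to bind the letters CTTTGAA or CTTTGAT, and a search on both strands of the RefSeq start-site windows (GRCm38.p6, 250 bases before and 50 after a start) shows which of the genes described here carry them. None of the 11 windows of the 5 genes held either motif. Of 51 further Wnt pathway genes, 29 had a window, and 3 of these (10.3%) held a motif, against 9.88% of all 27025 genes with a window. A match is a description of letters and not a site of binding. The 3 stretches are shown 5′ to 3′ on the strand of the gene, with the motif or its reverse complement in capitals, because Sp5 and Tnfrsf19 are feedback genes whose levels are given beside Lef1 further on and Gsk3a encodes a kinase of the beta-catenin destruction complex. They lie at chr2:70474809-70474835 on the plus strand, chr14:61038173-61038199 on the minus strand and chr7:25237993-25238019 on the minus strand.
Sp5: gcaaggccccCTTTGATcaggaaaatc
Tnfrsf19: tgaatgggggATCAAAGtgacaaacta
Gsk3a: gactgtgtttTTCAAAGtgcttccaag

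The E13.5, E16.5 and P0 libraries held 5962, 5208 and 5065 cells with a median of 7066.5, 11021 and 6797 UMIs per cell, and 84, 75 and 72 of their cell barcodes occurred in another library. Cells were clustered within each library without the 5 genes or the pathway genes, clusters were named from markers that include none of these genes, and each name is given as a likeness (basal epidermis-like and so on). Values are counts of a gene's UMIs per 1000000 UMIs of the class (CPM) with 95% Poisson intervals, and shares have exact binomial intervals. With 1 library per stage no value has a replicate check, no test was possible, and the intervals cover counting error only. CPM from 3′ ends is not divided by length, so levels are compared between classes and not between genes. Fewer transcripts per cell and fewer expressing cells cannot be told apart in a class sum, and free RNA adds to both.

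Lef1 was highest in the E16.5 germ and dermal condensate-like classes and in E13.5 basal epidermis-like cells, and lowest in P0 blood endothelial, E13.5 periderm, P0 pericyte and P0 upper follicle-like cells. In the E16.5 matrix, germ or placode-like class (121 cells, called germ-like here), which was led by Dkk4, Fgf20, Bmp2 and Shh, Lef1 stood at 308 CPM (282 to 336). In E16.5 basal epidermis-like cells (553 cells) it stood at 232 CPM (222 to 242). In E16.5 outer root sheath or follicle stalk-like cells (130 cells, called stalk-like) it stood at 103 CPM (90.2 to 118). The 3 intervals did not overlap. Of all 44 groups of at least 50 cells the germ-like class ranked first, but its interval overlapped that of E13.5 basal epidermis-like cells at 259 CPM (220 to 303). At P0, the matrix-like class (258 cells) had 115 CPM (104 to 128), basal epidermis-like cells (371 cells) had 102 (92.6 to 111) and inner root sheath-like cells (113 cells) had 130 (111 to 153), so that these intervals overlapped. P0 outer root sheath-like cells (485 cells) had 23.9 CPM (20.05 to 28.2), or 29.6 (24.7 to 35.3) without a sub-cluster of 131 cells described further on, and upper follicle-like cells (71 cells) had 10.2 (6.49 to 15.4).

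In the dermis, Lef1 was high in the condensate and papilla, intermediate in the upper and other dermal-like classes and low in the deep class. The E16.5 dermal condensate-like class (364 cells, led by Bmp3, Sox18, Sox2 and Foxd1) had 260 CPM (243 to 278) and the P0 papilla-like class (171 cells) had 208 (184 to 235). Other dermal-like cells of E16.5 (1847 cells) had 104 CPM (99.8 to 109), and P0 upper dermis-like cells (1131 cells) had 49.3 (44.2 to 54.7). Deep dermis-like cells, which carry markers such as Dlk1 and Mfap5 of the reticular dermis and fascia, had 17.8 CPM of Lef1 in the E13.5 library, 18.8 CPM in the E16.5 library and 15.9 CPM in the P0 library. Macrophage-like cells, in which no Lef1 is looked for, had 18.9, 18.7 and 14.9 CPM at these stages. The intervals of the deep and macrophage-like classes overlapped at every stage, with only 10 UMIs behind the P0 macrophage-like value, so the deep level was not distinguished from that of a cell type outside the dermis. E16.5 blood endothelial-like cells were at a like level of 15.8 CPM (12.7 to 19.4), but P0 blood endothelial-like cells had 5.06 CPM (2.83 to 8.34), below the P0 deep class at 13.2 to 19.0. The part of free RNA in the deep level was not tested.

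**Figure D1:**
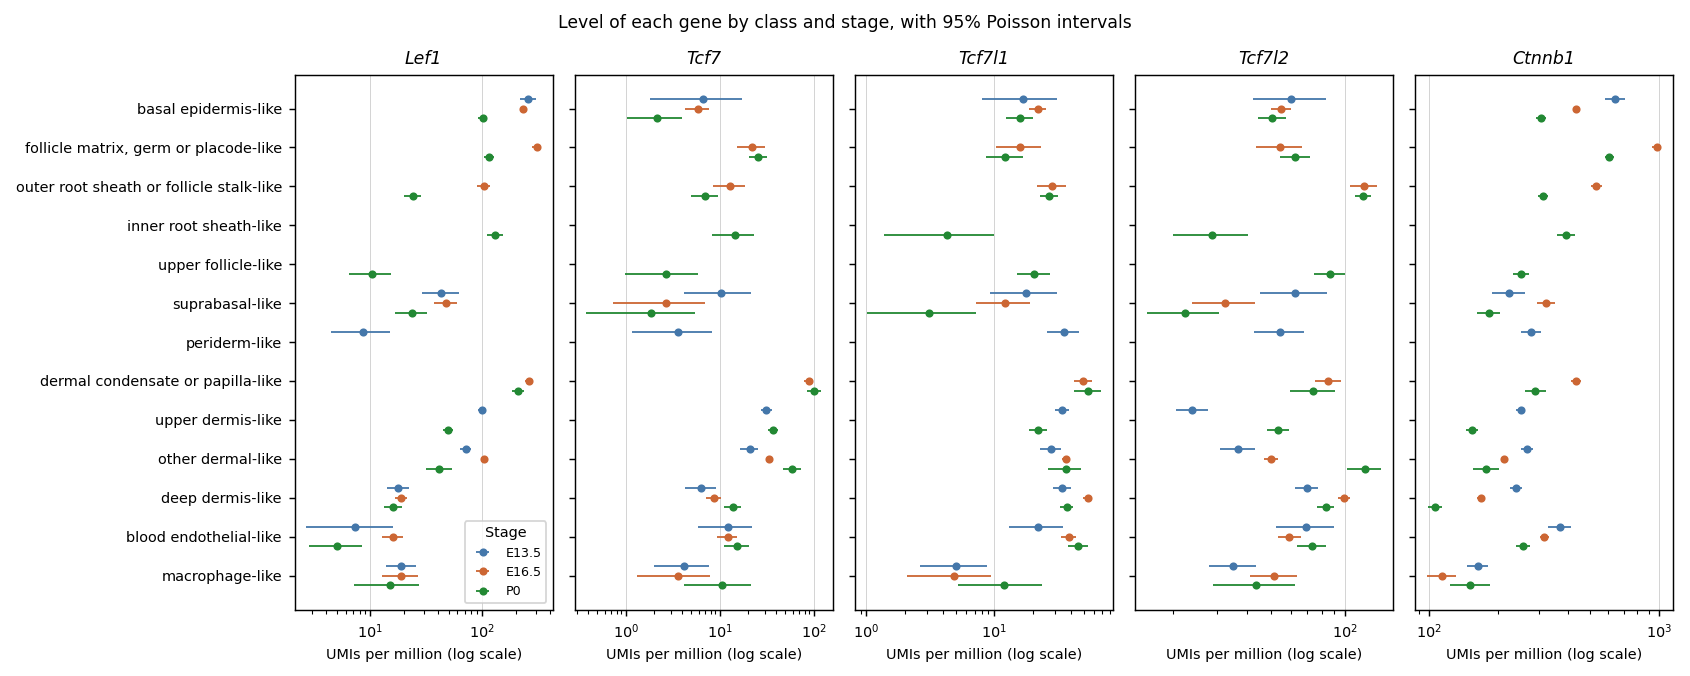
Level of each of the 5 genes (CPM, log scale) in epithelial, dermal, blood endothelial and macrophage-like classes at E13.5, E16.5 and P0. Points are class sums and bars are 95% Poisson intervals, 1 library per stage. Lef1 reaches 308 in the E16.5 germ-like class and 260 in the condensate-like class, and lies at 15.9 to 18.8 in deep dermis-like cells, where macrophage-like cells lie too.

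Counted per cell at an equal depth of 3500 UMIs (1 shallower cell left out), a Lef1 UMI was found in 57.9% (48.5 to 66.8) of E16.5 germ-like cells, in 50.5% (46.2 to 54.7) of basal-like cells and in 32.3% (24.4 to 41.1) of stalk-like cells. Macrophage-like cells of that library gave 6.62% (3.07 to 12.2). The germ and basal intervals overlapped at this depth, whereas the stalk-like share was below both and above the macrophage-like share. Without thinning, at medians of 11113, 13901, 12692 and 11818 UMIs per cell, the 4 shares were 96.7%, 90.4%, 71.5% and 11.7%. The condensate-like class gave 54.7% (49.4 to 59.9) and deep dermis-like cells 5.97% (4.60 to 7.61), which is no higher than the macrophage-like share. At P0 the thinned shares were 36.0% in matrix-like, 26.4% in basal-like and 9.48% in outer root sheath-like cells, beside 3.03% in macrophage-like cells.

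Within the follicle epithelium Tcf7l2 was high in the classes with low Lef1. E16.5 stalk-like cells had 119 CPM (105 to 134) of Tcf7l2, against 54.1 (43.5 to 66.6) in germ-like and 54.8 (49.9 to 59.97) in basal-like cells. P0 outer root sheath-like cells had 118 CPM (109 to 127), against 62.6 (54.1 to 72.0) in matrix-like, 50.2 (44.0 to 57.2) in basal-like and 28.8 (19.9 to 40.2) in inner root sheath-like cells. The stalk and outer root sheath levels were thus above every other named epithelial class of their library, and the P0 upper follicle-like class came next at 86.3 CPM (74.6 to 99.4). Without the 131 cells the outer root sheath level was 109 CPM (99.3 to 119), whose interval meets that of the upper follicle. Suprabasal-like cells were low in both genes, with 32.3 CPM of Tcf7l2 at E16.5 and 22.2 at P0, and E13.5 periderm-like cells had 54.2 CPM. Tcf7l2 was also found outside the epithelium, at 59.2 CPM in E16.5 blood endothelial-like and 51.2 in macrophage-like cells, while mast-like cells of the same library had 3 UMIs in 72 cells or 4.61 CPM (0.951 to 13.48). Across the 44 groups the highest Tcf7l2 level was 25.9 times that of these mast-like cells and 5.81 times that of the next lowest group.

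Tcf7l1 had a range of 17.5-fold across the 44 groups, or 12.8-fold without its lowest group, and no neighbouring groups had intervals that were clear of each other. In the epithelium it stood at 28.3 CPM (21.7 to 36.3) in E16.5 stalk-like cells and 15.8 (10.3 to 23.2) in germ-like cells. At P0 it stood at 26.7 CPM (22.6 to 31.2) in outer root sheath-like cells, 12.2 (8.63 to 16.7) in matrix-like cells and 4.23 (1.37 to 9.87, 5 UMIs) in inner root sheath-like cells. Tcf7l1 therefore followed the order of Tcf7l2 in the P0 follicle, with a smaller number of UMIs behind each value. Its highest levels were mesenchymal, at 54.0 CPM in P0 papilla-like, 53.6 in E16.5 deep dermis-like and 52.5 in P0 pericyte or smooth muscle-like cells, against 4.82 (2.08 to 9.50) in E16.5 macrophage-like cells.

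Tcf7, the gene of TCF1, was mainly dermal. It reached 101 CPM (84.1 to 120) in P0 papilla-like and 88.7 (78.9 to 99.4) in E16.5 condensate-like cells, followed by 59.1 (46.6 to 73.8) in a P0 dermal-like class led by Tagln, Sost, Dkk1 and Acta2. In the epithelium it was found in the matrix-like class of P0 at 25.7 CPM (20.4 to 32.0) and the germ-like class of E16.5 at 21.9 (15.3 to 30.3). In basal epidermis-like cells it was 5.83 CPM at E16.5 and 2.18 at P0, below the 12.1 and 15.2 CPM of blood endothelial-like cells, and is read as background there. Mast-like cells of E16.5 had 50.7 CPM of Tcf7 (34.9 to 71.3), the fourth highest value, from 33 UMIs that lay in 8 of 72 cells.

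Ctnnb1 was found in every class and varied by 11.5-fold between the 44 groups, or 9.12-fold without the lowest. Its peak was the E16.5 germ-like class at 973 CPM, followed by 645 in E13.5 basal epidermis-like cells, 606 in P0 matrix-like and 533 in E16.5 stalk-like cells. The lowest level of 84.6 CPM was that of E16.5 mast-like cells. In the dermis Ctnnb1 was 434 CPM in condensate-like and 289 in papilla-like cells, and 107 in P0 deep dermis-like cells. High Ctnnb1 thus met high Lef1 in the germ and the condensate, but in the stalk-like class Ctnnb1 was above the basal-like level of 434 CPM while Lef1 was below its basal-like level.

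The exchange was measured as the share of Lef1 among the UMIs of Lef1, Tcf7l1 and Tcf7l2 together, a measure in which the depth of a class cancels. In the E16.5 epithelium, Lef1 made up 81.5% (78.2 to 84.5, 506 of 621 UMIs) in germ-like cells, 75.2% (73.5 to 76.8, 1988 of 2645 UMIs) in basal-like cells and 41.2% (37.1 to 45.5, 226 of 548 UMIs) in stalk-like cells. The germ-like share was 6.32 points above the basal-like share (2.65 to 9.75) and the stalk-like share was 40.2 points below the germ-like share (34.9 to 45.4). Pooling germ-like and stalk-like cells as follicle gave 62.6%, which is 12.5 points below the basal-like share (9.29 to 15.8), so the pooled follicle goes the other way from its germ. By level the pooled follicle held 191 CPM of Lef1 (log2 difference -0.27, -0.38 to -0.15) and 91.0 CPM of Tcf7l2 (0.64, 0.46 to 0.82). The lower Lef1 level did not hold at Leiden resolution 2 (-0.04, -0.16 to 0.08) or with marker gates in place of clusters (-0.07, -0.19 to 0.06), while the lower share did. None of the 5 genes passed 2-fold after adding 10 CPM, where 1.51% of 9961 genes were higher by that much and 0.281% lower.

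At P0 the same order was found between the outer root sheath and the matrix but not between the matrix and the epidermis. Lef1 made up 60.6% (56.6 to 64.6, 359 of 592 UMIs) in matrix-like cells and 14.2% (12.0 to 16.51, 137 of 968 UMIs) in outer root sheath-like cells, a difference of 46.5 points (41.8 to 51.0). Basal-like cells also had 60.6% (57.0 to 64.0, 467 of 771 UMIs), and the interval of the difference from the matrix-like class ran from -5.27 to 5.39 points, whereas marker gates gave a matrix share higher by 7.6 points (0.50 to 14.7). In inner root sheath-like cells, led by the inner root sheath keratins Krt25, Krt28 and Krt71 and by the hair shaft keratin Krt35, the share was 79.8% (73.4 to 85.2), 19.2 points above the matrix (11.7 to 25.9). Upper follicle-like cells had 8.75% and suprabasal-like cells 48.1% (36.7 to 59.6).

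**Figure D2:**
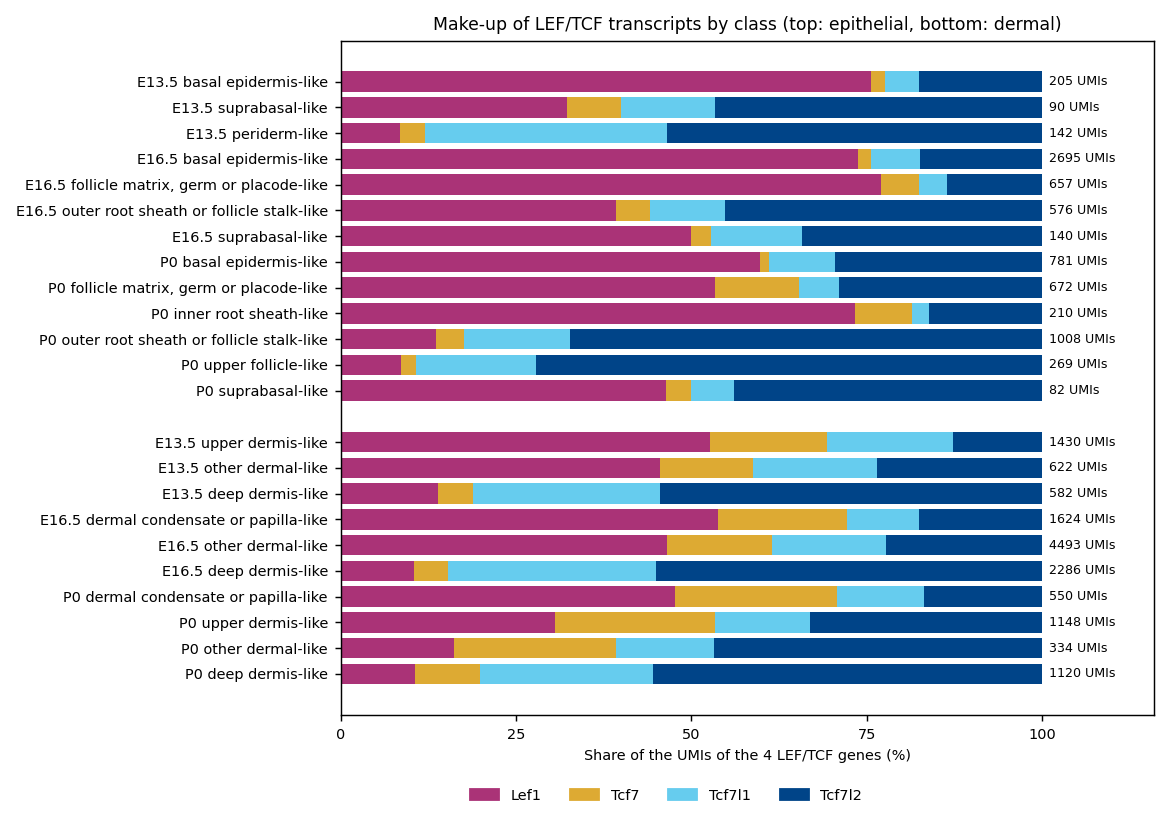
Share (%) of Lef1, Tcf7, Tcf7l1 and Tcf7l2 in the summed UMIs of the 4 genes, by stage and class, with the number of UMIs behind each bar at its right. Bars total 100%, with epithelial classes above and dermal classes below, and error bars are not drawn. Lef1 takes most of the bar in basal, germ and inner root sheath-like cells and Tcf7l2 takes most of it in P0 outer root sheath, upper follicle and deep dermis-like cells.

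By level, the germ-like class exceeded the basal-like class by 2-fold or more in 2 of the 5 genes, where 1.17% of 9433 genes with at least 50 UMIs were that much higher and 0.742% that much lower. These were Ctnnb1, with a log2 difference of 1.15 (1.06 to 1.23) after adding 10 CPM, and Tcf7, with 1.01 (0.59 to 1.48). Lef1 was higher by 0.39 (0.26 to 0.53), and Tcf7l2 differed by -0.01 (-0.30 to 0.27). The higher Lef1 share of the germ thus came with more Lef1 and with Tcf7l2 at the basal-like level.

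Between the stalk-like and germ-like classes both sides of the exchange differed. Lef1 was lower in the stalk by 2.98-fold (log2 difference -1.49, -1.70 to -1.28) and Tcf7l2 was higher by 2.19-fold (log2 interval 0.68 to 1.34), where 0.77% of 7273 genes were 2-fold or more lower and 2.31% higher. Tcf7l1 was higher by 0.57 (0.10 to 1.13) and Ctnnb1 was lower by a difference of -0.85 (-0.96 to -0.75). Against basal-like cells the stalk was lower in Lef1 by 2.25-fold and higher in Tcf7l2 by 2.17-fold, and 0.464% of 9701 genes were 2-fold or more lower there and 2.24% higher.

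The newborn outer root sheath-like class repeated this order against the matrix-like class, with Lef1 lower by 4.83-fold (-1.89, -2.09 to -1.68). Its Lef1 interval of 20.05 to 28.2 CPM overlapped that of P0 macrophage-like cells (7.16 to 27.5, 10 UMIs), which limits the Lef1 folds of this class. Tcf7 was lower by a difference of -1.07 (-1.28 to -0.81), and 1.31% of 9014 genes were 2-fold or more lower. Tcf7l2 was higher by 1.89-fold (0.82, 0.61 to 1.04) and Tcf7l1 by 2.19-fold (0.72, 0.36 to 1.15), neither of which passed 2-fold after adding 10 CPM, as 1.87% of genes did. Ctnnb1 was lower by a difference of -0.93 (-1.03 to -0.84). Against basal-like cells Ctnnb1 differed by 0.03 (-0.07 to 0.13), while Lef1 was lower by 4.25-fold and Tcf7l2 higher by 2.35-fold, beside 2.86% of 9362 genes lower and 2.42% higher.

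The P0 matrix-like class differed from basal-like cells most in Tcf7 and Ctnnb1. Tcf7 was higher by 1.55 (0.93 to 2.43), from 80 against 10 UMIs, and no fold is given because the basal-like level lies below that of endothelial-like cells. It was the only one of the 5 genes past 2-fold after adding 10 CPM, as 2.74% of 8639 genes were, while 3.85% were lower by that much. Ctnnb1 was higher by 0.96 (0.87 to 1.06) and Lef1 differed by 0.17 (-0.02 to 0.35), but by 0.44 (0.19 to 0.70) with marker gates. Inner root sheath-like cells held Lef1 at the matrix-like level (0.16, -0.10 to 0.42) with lower Tcf7l2 (-0.91, -1.31 to -0.49) and lower Tcf7l1 (-0.64, -0.97 to -0.10). None of the 5 genes passed 2-fold there, where 3.98% of 6957 genes were lower by that much and 2.01% higher.

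Leaving the basal layer went with lower Lef1 at each stage. Suprabasal-like cells were lower than basal-like cells by 6.02-fold in the E13.5 library, 4.91-fold in the E16.5 library and 4.33-fold in the P0 library, where 3.14%, 1.21% and 5.58% of genes were 2-fold or more lower and 3.94%, 5.19% and 3.64% higher. The P0 fold is limited, since suprabasal-like Lef1 of 23.5 CPM (16.6 to 32.2) overlapped that of P0 macrophage-like cells (7.16 to 27.5). E13.5 periderm-like cells, the flat outer layer of the embryonic epidermis, had 8.55 CPM of Lef1 (4.42 to 14.9, 12 UMIs) against 259 CPM in basal-like cells, with no fold given because macrophage-like cells of that library had 18.9 CPM. In this comparison 3.34% of genes were 2-fold or more lower and 8.39% higher. The Lef1 share was 8.76% (4.61 to 14.8) against 77.1% (70.7 to 82.7) in basal-like cells. Of the 130 periderm-like cells, 47 formed a sub-cluster led by Pbld2, Tac1, Aspn and Ebf2, none of them a periderm marker, and without it Lef1 was 6.68 CPM (2.69 to 13.8) and the share 6.86% (2.80 to 13.6). Tcf7l2 was lower in suprabasal-like cells too at E16.5 (-0.61, -0.95 to -0.27) and P0 (-0.90, -1.26 to -0.53), but differed by 0.04 (-0.52 to 0.65) at E13.5. The Lef1 share of suprabasal-like cells lay below that of basal-like cells by 42.2 points (29.2 to 53.8), 23.7 points (14.9 to 32.6) and 12.5 points (0.401 to 24.4) at the 3 stages. The 67 basal-like cells of E13.5 were led by Dkk4, a gene of placodes, and were not taken as interfollicular cells alone. The suprabasal-like cells of E16.5 were led by periderm genes such as Krt4 and Krt19 beside Krt1 and Krt10.

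In the dermis the exchange ran between the deep class and the other dermal-like classes. Lef1 made up 14.6% (11.8 to 17.9), 11.0% (9.70 to 12.4) and 11.7% (9.79 to 13.8) of the 3 genes in deep dermis-like cells at E13.5, E16.5 and P0. It made up 59.8%, 54.7% and 35.4% in the upper dermis-like and other dermal-like classes together, called non-deep here. The differences were 45.2, 43.7 and 23.7 points, each with an interval clear of 0. At E13.5 both groups leave out tendon or cartilage-like sub-clusters of the dermal cells, with 350, 194 and 150 cells. Their Lef1 shares were 25.7%, 3.20% and 25.1%, so the E13.5 difference depends on this choice. The sub-cluster of 350 cells was led by Abhd2, Pam and Notch2, with no tendon or cartilage marker among its leading genes. Lef1 in deep dermis differed by -1.84 (-2.05 to -1.62), -1.99 (-2.11 to -1.86) and -1.16 (-1.35 to -0.97) in log2 after adding 10 CPM. Tcf7 differed by -1.21 (-1.41 to -0.97), -1.22 (-1.35 to -1.08) and -1.08 (-1.26 to -0.88). In these comparisons 2.44%, 1.02% and 3.25% of genes were 2-fold or more lower. No fold is given because deep Lef1 was not distinguished from macrophage-like cells. Deep Tcf7 was not above blood endothelial-like cells at E16.5 (8.67 against 12.1 CPM) and P0 (13.8 against 15.2 CPM). Endothelial-like cells are not a floor for Tcf7, however. P0 basal-like cells had 2.18 CPM of Tcf7, with an interval clear of the P0 deep class at 11.2 to 16.7. The part of free RNA in deep Tcf7 was not tested. The P0 non-deep cells held 219 cells led by Tagln, Sost, Dkk1 and Acta2 beside 1131 upper dermis-like cells. Without the former the P0 share difference (deep minus non-deep) was -27.9 points (-31.7 to -23.99). Lef1 then differed by -1.19 (-1.38 to -1.001) and Tcf7 by -0.97 (-1.16 to -0.77), the latter no longer past 2-fold.

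Tcf7l2 was higher in deep dermis-like cells by 2.47-fold at E13.5 (1.06, 0.86 to 1.26), 1.98-fold at E16.5 (0.86, 0.75 to 0.97) and 1.31-fold at P0 (0.34, 0.19 to 0.49), where 1.54%, 1.48% and 2.21% of genes were 2-fold or more higher. Non-deep cells of the 3 libraries had 28.2, 49.9 and 63.6 CPM of Tcf7l2, while the deep levels were 69.6, 99.0 and 83.1 CPM. The P0 cells led by Tagln had 120 CPM of Tcf7l2 and upper dermis-like cells 53.3 CPM, and against the latter alone deep cells were higher by 1.56-fold (0.56, 0.39 to 0.72). Tcf7l1 was higher in deep cells by 0.46 at both E16.5 (0.33 to 0.59) and P0 (0.25 to 0.67), and differed by 0.08 (-0.14 to 0.29) at E13.5.

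The condensate and the papilla did not show an exchange: Lef1 was higher there without lower Tcf7l1 or Tcf7l2. In the E16.5 condensate-like class 3 of the 5 genes were 2-fold or more above all other dermal-like cells, where 2.71% of 11945 genes were higher by that much and 2.9% lower. Lef1 was 3.66-fold higher (1.73, 1.63 to 1.84), Tcf7 3.71-fold (1.54, 1.37 to 1.72) and Ctnnb1 2.22-fold (1.11, 1.03 to 1.19). Tcf7l1 differed by 0.16 (-0.03 to 0.36) and Tcf7l2 was higher by 0.27 (0.11 to 0.43). Against the non-deep dermal-like cells alone, Lef1 was higher by 1.24 (1.13 to 1.35) and Tcf7 by 1.18 (1.002 to 1.36), 2 of the 5 genes past 2-fold, where 2.8% of 11230 genes were 2-fold or more higher and 2.58% lower. Tcf7l2 was higher there by 0.67 (0.49 to 0.84), and the Lef1 share of 65.9% (63.3 to 68.5) exceeded theirs by 11.2 points (8.12 to 14.2), less than the 27.1 points (24.2 to 29.9) by which it exceeded that of all other dermal-like cells.

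The P0 papilla-like class gave the same picture with a wider gap in Lef1. Lef1 was 6.32-fold higher than in all other dermal-like cells (2.35, 2.14 to 2.55), Tcf7 3.64-fold (1.56, 1.29 to 1.82) and Ctnnb1 2.17-fold (1.06, 0.90 to 1.22), where 5.49% of 10537 genes were 2-fold or more higher, 3.16% were lower, and the median gene was higher by 0.16. Tcf7l1 was higher by 0.68 (0.35 to 0.99) and Tcf7l2 differed by 0.02 (-0.26 to 0.29). Against the non-deep cells alone, Lef1 was higher by 1.91 (1.69 to 2.13) and Tcf7 by 1.15 (0.87 to 1.42), 2 of the 5 genes past 2-fold, as 5.5% of 9486 genes were, with 3.68% lower. The Lef1 share was 61.9% (57.1 to 66.6), 37.7 points above all other dermal-like cells (32.5 to 42.7) and 26.5 points above the non-deep ones (20.9 to 31.9). Against upper dermis-like cells alone the gap was 22.4 points (16.53 to 28.0), with Tcf7l2 higher by 0.41 (0.11 to 0.70) and Tcf7l1 by 1.01 (0.65 to 1.37).

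**Figure D3:**
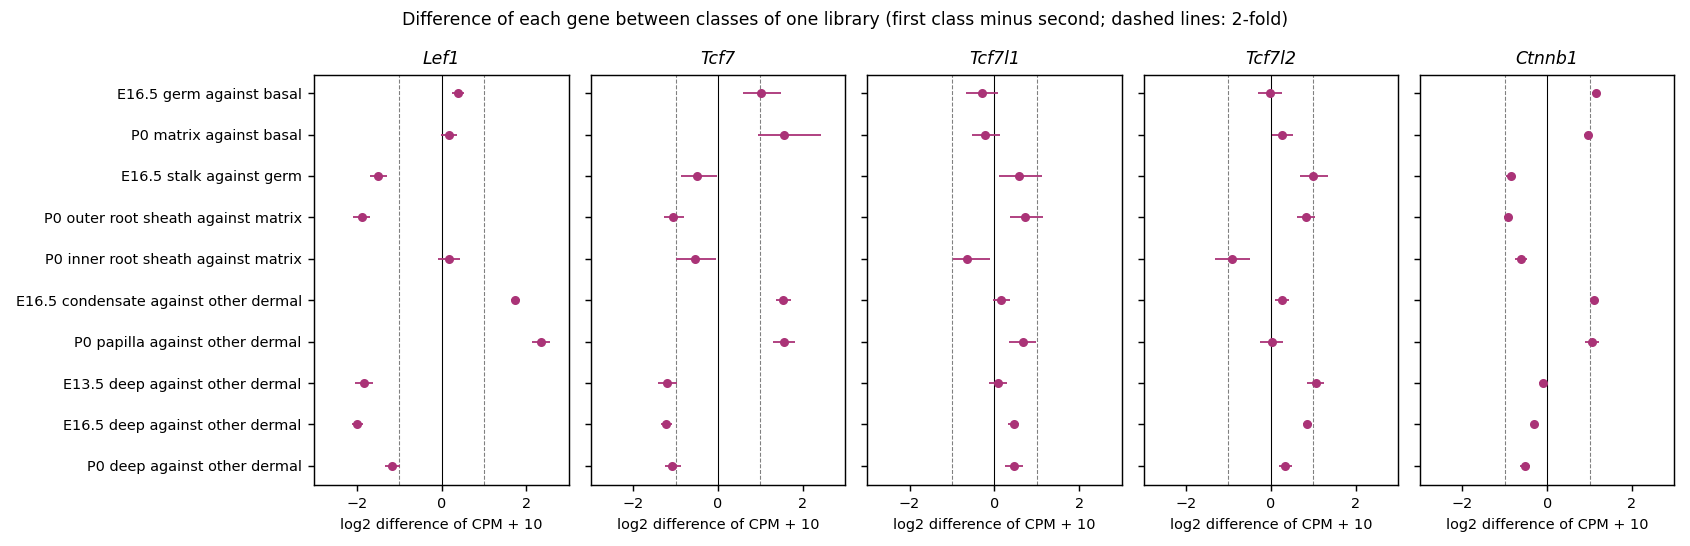
Log2 difference (CPM plus 10, first class minus second) of each gene in 10 comparisons between classes of the same library, with 95% intervals for counting error and dashed lines at 2-fold. Lef1 lies left of the lower line for stalk, outer root sheath and deep dermis, where Tcf7l2 lies right of 0, and right of the upper line for condensate and papilla, where Tcf7l2 lies within 0.27 of 0.

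The classes were not uniform inside. Of the stalk-like cells, 82 cells led by Ccer2, Lhx2 and Pthlh had 94.6 CPM of Lef1, 36.1 of Tcf7l1 and 137 of Tcf7l2 (Lef1 share 35.3%), while 48 cells led by Calm4, Sostdc1 and Trpm1 had 127, 6.86 and 68.6 CPM (62.7%). The low share of the E16.5 stalk thus rested mainly on the first group. Of the P0 outer root sheath-like cells, 131 cells led by Cyp2g1, Cidea and Mgst1 had the lowest Lef1 at 6.89 CPM and the highest Tcf7l2 at 145 CPM. No outer root sheath marker was among their leading genes, as in the other sub-clusters of the class. Cidea, Cyp2g1, Acsbg1 and Apoe, however, also led the Krt79 cluster of the library, so the leading genes of these cells go against the name of the class. Without them the Lef1 share minus that of the matrix was -42.8 points (-47.6 to -37.7), Lef1 was lower by 3.89-fold, Tcf7l2 higher by 1.74-fold and Tcf7 lower by a difference of -0.92 (-1.17 to -0.62), no longer past 2-fold. The other sub-clusters of the class had 22.8 and 40.4 CPM of Lef1 with 112 and 104 CPM of Tcf7l2. Leaving the 131 cells out does not settle the name of these others. The summed outer root sheath markers were 4739 CPM in the whole class and 5619 CPM in upper follicle-like cells. The 4 basal-like sub-clusters of E16.5, which differed in cycling genes, stayed between 195 and 256 CPM of Lef1.

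Within the P0 papilla-like class, 41 cells led by Serpine2, Gdf10 and Alpl had 339 CPM of Lef1 and 45.6 of Tcf7, and 130 cells led by Bmp7, Sox18 and Bmp3 had 148 CPM of Lef1 and 126 of Tcf7. Lef1 and Tcf7 thus had opposite orders in these papilla-like groups, and the Lef1 share of the 3 genes was 78.4% and 50.8%. A P0 upper dermis-like sub-cluster of 278 cells led by Kcnk2 and Meox2 had a share of 56.1%. The E16.5 condensate-like groups were closer, with 299 and 213 CPM of Lef1 and 92.0 and 84.6 CPM of Tcf7. Their Lef1 shares were 67.6% and 63.2%, beside 73.1% in 382 other dermal-like cells led by Kcnk2 and Stmn2. Deep dermis-like sub-clusters ranged from 7.42 to 25.6 CPM of Lef1 and from 26.8 to 197 CPM of Tcf7l2. Their Tcf7l2 minimum was a P0 sub-cluster of 252 cells led by Dpp4 and Grem1, which shows that low Lef1 did not always come with high Tcf7l2.

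**Figure D4:**
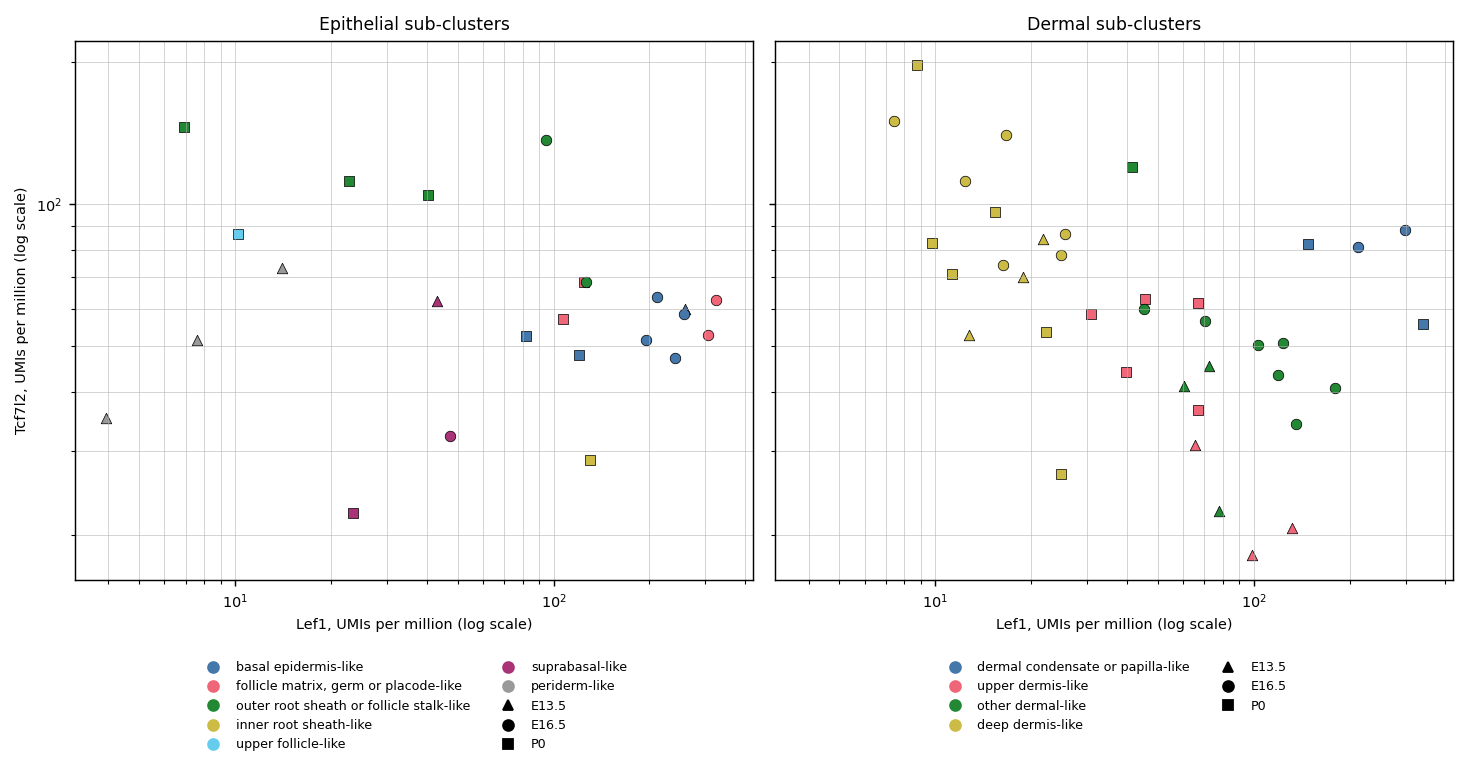
Level of Lef1 against Tcf7l2 (CPM, both log scales) in each sub-cluster of the epithelial cells (left) and of the dermal cells (right), with color for class and shape for stage. P0 outer root sheath-like points and most deep dermis-like points lie to the upper left, and basal, germ and matrix-like points to the lower right. The E16.5 stalk-like points, at 94.6 and 127 CPM of Lef1, lie within the Lef1 range of the basal-like points, the lowest of which is at 82.0. Condensate or papilla-like points lie to the right at Tcf7l2 levels of 55.7 to 88.2.

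The exchange between classes was not seen as exclusion within single cells. Of 553 E16.5 basal-like cells thinned to 3500 UMIs, 12.7% had UMIs of both Lef1 and Tcf7l1 or Tcf7l2, 37.8% of Lef1 alone, 12.5% of Tcf7l1 or Tcf7l2 alone and 37.1% of none. Tcf7l1 or Tcf7l2 was found in 25.1% (20.1 to 30.6) of the 279 cells with a Lef1 UMI and in 25.2% (20.2 to 30.8) of the 274 cells without one. The shares also overlapped in germ-like cells (21.4% and 25.5%), stalk-like cells (26.2% and 34.1%), condensate-like cells (32.2% and 37.0%) and P0 outer root sheath-like cells (32.6% and 35.3%). At this depth most transcripts of a cell are missed, so exclusion in a part of the cells was not detectable.

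Side by side over the libraries, Lef1 in basal-like cells was 259, 232 and 102 CPM at E13.5, E16.5 and P0. In the non-deep dermal-like cells it was 89.4, 104 and 48.1 CPM and in the deep ones 17.8, 18.8 and 15.9 CPM. In the condensate or papilla-like class it was 260 CPM at E16.5 and 208 at P0, and in the matrix or germ-like class 308 and 115. P0 values were thus below E16.5 values in each of these classes, most in basal and germ or matrix-like cells, and the intervals overlapped in the deep class alone. Tcf7l2 did not follow, since it was 60.1, 54.8 and 50.2 CPM in basal-like cells and 119 and 118 CPM in the stalk or outer root sheath-like class.

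RNA of other cell types was present in these classes at levels that moved with some comparisons. The summed dermal markers were 2092 CPM in E16.5 basal-like, 3092 in germ-like and 3472 in stalk-like cells, against 24925 in other dermal-like cells, none of the 7 at 0. The summed epithelial markers were 598 CPM in condensate-like and 394 in other dermal-like cells, against 14646 in basal-like cells. At P0 the erythroid markers summed to 2046 CPM in basal-like and 102 in matrix-like cells. The part of this RNA in the differences was not tested. Lef1 in E16.5 other dermal-like cells was 104 CPM, about the stalk-like level and below the germ-like and basal-like levels.

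The 51 other genes of the pathway, listed by role, were compared in the same way. Most did not pass 2-fold: of those with at least 50 UMIs, 2 were higher and 1 was lower of 43 between germ and basal-like cells, 4 and 3 of 37 between stalk and germ-like cells, 4 and 2 of 41 between P0 matrix and basal-like cells, and 2 and 5 of 42 between outer root sheath and matrix-like cells. In the dermis the counts were 4 and 1 of 47 for the condensate, 8 and 0 of 43 for the papilla against all other dermal-like cells, and 2 and 3 of 47 for the deep dermis of E16.5. Over all genes tested, the shares higher and lower were 1.17% and 0.742%, 2.31% and 0.77%, 2.74% and 3.85%, 1.87% and 1.31%, 2.71% and 2.9%, 5.49% and 3.16%, and 1.48% and 1.02% in the same order. In all but the stalk and papilla comparisons most genes past 2-fold were targets and feedback genes, whereas the destruction complex (Apc, Axin1, Gsk3a, Gsk3b, Csnk1a1, Btrc) had no member past 2-fold in any of these 7 comparisons. The median log2 difference of all 13 target and feedback genes was 0.16 for germ against basal, -0.18 for stalk against germ, 0.60 for matrix against basal and -0.74 for outer root sheath against matrix, where the median of all genes with at least 50 UMIs was -0.01, 0.12, 0.09 and 0.01. It was 0.39 for the condensate, 0.35 for the papilla and -0.55 for the deep dermis of E16.5, where the median of all genes was 0.04, 0.16 and -0.05.

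Among the co-factors, Bcl9l, which links beta-catenin to Pygopus proteins, was lower in germ-like than in basal-like cells (10.3 against 31.4 CPM, -1.02, -1.38 to -0.62). The Groucho-family co-repressor Tle4 was higher in condensate-like cells (28.6 against 6.199 CPM, 1.25, 0.99 to 1.52) and Tle3 in papilla-like cells (48.5 against 17.3 CPM, 1.10, 0.75 to 1.44). E-cadherin, encoded by Cdh1, which holds beta-catenin at junctions, was lower in P0 matrix-like than basal-like cells (35.3 against 104 CPM, -1.33, -1.56 to -1.08) and higher in E16.5 stalk-like than germ-like cells (84.5 against 36.5 CPM, 1.02, 0.65 to 1.43). In both of these comparisons the class with lower Cdh1 had the higher Ctnnb1, but this did not hold throughout the epithelial follicle. Stalk-like cells had more Ctnnb1 than basal-like cells (533 against 434 CPM) without lower Cdh1 (84.5 against 74.1 CPM). Inner root sheath-like cells had the Cdh1 level of matrix-like cells (35.5 against 35.3 CPM) with less Ctnnb1 (393 against 606 CPM).

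Of the Wnt receptors, Fzd10 went with Lef1 in the stalk, outer root sheath and papilla but not in the inner root sheath. It was lower in stalk-like than germ-like cells (71.2 against 220 CPM, -1.50, -1.75 to -1.26), lower in P0 outer root sheath-like than matrix-like cells (18.3 against 68.7 CPM, -1.48, -1.69 to -1.24), and higher in papilla-like cells than in all other dermal-like cells (69.9 against 4.40 CPM, 2.47, 2.07 to 2.895). In inner root sheath-like cells Fzd10 was below the matrix-like level (45.7 against 68.7 CPM, -0.50, -0.86 to -0.13), while Lef1 was at it. Fzd1 was higher in the outer root sheath-like class (65.9 against 18.9 CPM, 1.39, 1.05 to 1.76). Fzd4 was higher in deep dermis-like cells at E16.5 (14.7 against 1.35 CPM, 1.12, 0.80 to 1.54).

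The targets and feedback genes were gene-specific by compartment. Dkk4, a secreted Wnt antagonist of placodes, stood at 339 CPM in germ-like, 9.56 in basal-like and 12.3 in stalk-like cells of E16.5. Sp5, a zinc-finger repressor induced by Wnt, stood at 42.6, 2.10 and 14.2 CPM in these classes, and at 146 CPM in P0 matrix-like, 1.96 in basal-like and 5.93 in outer root sheath-like cells. Both genes were thus highest in the class with the highest Lef1 share of the E16.5 epithelium. Both genes were left out of the clustering but are among the leading genes of the germ or matrix-like clusters, so their levels describe these clusters. Below the germ-like class of E16.5, Sp5 did not follow the Lef1 share. Stalk-like cells had a lower share than basal-like cells but more Sp5 (log2 interval of the difference 0.55 to 1.61). Dkk4 did not distinguish stalk-like from basal-like cells (0.19, -0.15 to 0.58). At P0 Sp5 did not follow the share either, because basal-like cells had the Lef1 share of the matrix with 1.96 CPM of Sp5.

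Axin2, the scaffold that feeds back on beta-catenin, differed less than these genes. It was 62.6 CPM in germ-like, 44.2 in basal-like and 36.1 in stalk-like cells of E16.5, and 37.2, 26.8 and 14.1 CPM in matrix, basal and outer root sheath-like cells of P0. Among these epithelial classes of each stage, Axin2 was thus highest in the class with the most Ctnnb1. The link did not hold outside the epithelium. Non-deep dermal-like cells of E16.5 had 75.2 CPM of Axin2, above the germ-like level, with only 212 CPM of Ctnnb1. Axin2 was lower in outer root sheath-like than in basal-like cells (-0.61, -0.84 to -0.35). Stalk-like and basal-like cells were not distinguished in Axin2 (-0.23, -0.51 to 0.05), although Ctnnb1 was higher in the stalk (533 against 434 CPM). Lgr5, a receptor of R-spondins that marks lower outer root sheath, was higher in P0 outer root sheath-like than matrix-like cells (57.0 against 11.9 CPM, 1.61, 1.21 to 2.08), beside lower Lef1.

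In the dermis, Nkd1, Nkd2 and Notum, which restrain Wnt signals, were above all other dermal-like cells in the E16.5 condensate at 435, 113 and 33.9 CPM against 196, 47.8 and 5.28 CPM. Against the non-deep dermal-like cells alone, at 272, 58.0 and 8.08 CPM, Notum stayed 2-fold or more higher after adding 10 CPM, and Nkd1 and Nkd2 did not. In the P0 papilla-like class Nkd2 was 361 against 49.9 CPM (2.63, 2.47 to 2.79) and Notum 89.8 against 1.07 CPM (3.17, 2.52 to 3.94). Sp5 went the other way, with 5.36 CPM in condensate-like and 28.9 in all other dermal-like cells (-1.34, -1.56 to -1.07), so high Lef1 came with high Sp5 in the germ and not in the condensate. Tnfrsf19 was higher in the papilla-like class (110 against 26.1 CPM, 1.73, 1.47 to 1.99) and lower in the P0 outer root sheath-like class than in the matrix (37.5 against 124 CPM, -1.50, -1.69 to -1.30). In deep dermis-like cells of E16.5 Axin2 (-1.02, -1.14 to -0.90), Nkd1 (-1.70, -1.78 to -1.61) and Sp5 (-1.23, -1.37 to -1.09) were lower together with Lef1 and Tcf7.

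**Figure D5:**
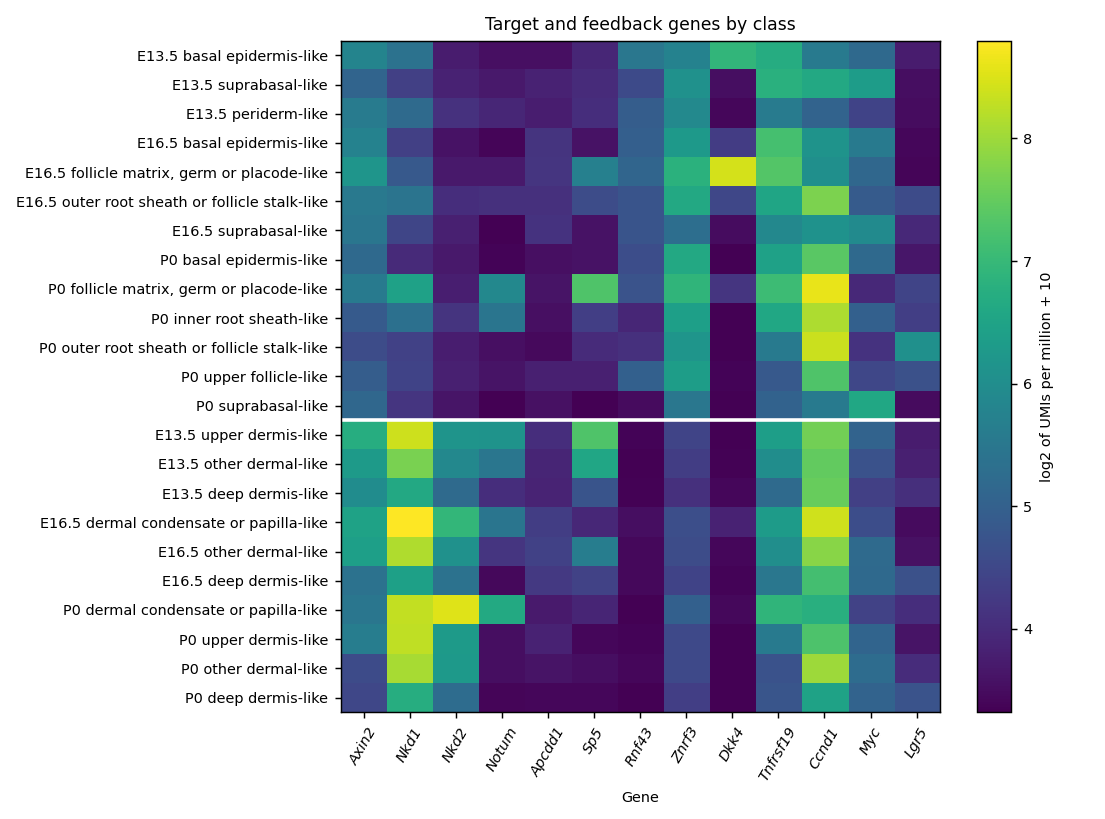
Heat map of 13 target and feedback genes (columns) in epithelial classes (above the white line) and dermal classes (below) at the 3 stages, colored by log2 of CPM plus 10. Dkk4 stands out in the E16.5 germ-like class at 339 CPM and Sp5 in the P0 matrix-like class at 146, whereas Nkd2 and Notum mark the P0 papilla-like class.

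Over the 44 groups of at least 50 cells, the genes outside the marker lists whose log2 levels were most like those of Lef1 were Tnfrsf19 (Pearson r = 0.862), 5930412G12Rik (0.764), Ttc23 (0.696), Fzd10 (0.688) and Ctnnb1 (0.683). For Tcf7 they were Nkd2 (0.726), Wif1 (0.723), Ism1 (0.723), Adrbk2 (0.699) and Pde4d (0.698), and for Tcf7l1 they were Tns2 (0.791), Rab12 (0.790), Pkd2 (0.787), Nid1 (0.777) and Clic4 (0.760). The nearest genes of Tcf7l2 were less like it, with 2210013O21Rik at 0.630 and Bag3 at 0.606, and those of Ctnnb1 were led by Trp53 (0.807) and Ttc23 (0.794). Among the factors themselves Lef1 had r = 0.426 with Tcf7, 0.001 with Tcf7l1 and 0.122 with Tcf7l2, and Tcf7l1 had 0.488 with Tcf7l2. Over all cell types Lef1 and Tcf7l2 were thus not inverse, unlike within the epithelial follicle. These values describe groups that share 3 libraries and are not independent points.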

How the data were processed

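Pooled male back skin at 3 stages was measured, 1 library each. The authors counted UMIs with Cell Ranger (2.2.0, mm10 per the labels), kept cells with at least 1750 genes and genes seen in 3 cells, and the deposited unit is the natural log (ln) of UMIs scaled to 10000 per cell plus 1. All 48197283 values above 0 returned whole UMIs within 0.001. Each library (46599806 to 66239195 UMIs) was clustered in scanpy 1.11.5 (Python 3.11.15, leidenalg 0.10.2; 2000 variable genes, 30 components, 15 neighbours, Leiden resolution 1), and dermal-like and epithelial-like cells were clustered again. A cluster was named for the list whose markers lay, on average, farthest above the 25th percentile of clusters (log2 of at least 0.5, a lead of 0.1, 3 markers past 1). Condensate or papilla names also needed a marker among the 10 leading genes, and 1127 cells of clusters with mixed markers were left out. These naming rules were set after the clusters had been seen. Scrublet called 0, 84 and 106 doublets, did not work at E13.5, and doublets were kept. The genes, lists and rules were chosen with earlier results of these data known.

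UMIs were summed by class. Differences are log2 of CPM plus 10, compared between classes of 1 library, and their intervals come from the exact conditional binomial. Pathway genes with at least 50 UMIs in both classes together were counted past 2-fold. All genes named are the 5 genes, genes of the 51-gene pathway list, the 5 genes most like each by Pearson r (at least 200 UMIs in all), and leading genes or markers that describe a cluster. The intervals were tested on simulated data. Alternatives changed the resolution, the genes per cell, the weight of a cell, the classes and the added CPM.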

Additional observations from a re-analysis of the deposited data

How the results depend on the processing

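Of 134 values recomputed for 12 results under 12 alternatives, 96 moved by less than their counting interval, 38 moved by more and 0 called values changed sign. For the Lef1 log2 difference of the E16.5 follicle from basal-like cells (-0.27 as given), Leiden resolution 2 gave -0.04 and marker gates in place of clusters -0.07, both with intervals that span 0, and cells without cycling UMIs -0.43. For the P0 matrix (0.17) a minimum of 2500 genes gave -0.02 and gates 0.44, the latter with an interval above 0. For the condensate (1.73) resolution 2 gave 1.39, 2500 genes 1.61, adding 1 CPM 1.86, naming without a leading marker 1.44, and cells without cycling UMIs 1.9. For the papilla (2.35) 2500 genes gave 2.68, 1 CPM 2.62 and naming without a leading marker 1.66, and at resolution 0.5 no cells took that name, so neither papilla result had a value there.

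For the Lef1 share in points, the follicle (-12.5) moved to -7.4 at resolution 2 and under gates, -16.6 with 2500 genes and -8.4 with equal weight per cell. The matrix (0.1) moved to 7.6 under gates, with an interval above 0, and -5.4 without cycling cells. The condensate (27.1) moved to 24.0 at resolution 2, 21.8 under gates, 30.6 without a leading marker and 31.4 without cycling cells, and the papilla (37.7) to 49.3 with 2500 genes and 21.8 without a leading marker. Stalk against germ (-40.2) moved to -27.6 at resolution 2 and -34.4 with equal weight, and outer root sheath against matrix (-46.5) to -36.7 at resolution 0.5 and -41.1 with 2500 genes. Deep dermis at E16.5 (-43.7) moved to -49.2 with equal weight, -32.7 under gates, -40.0 with a lead of 0.2 in naming, -41.1 without a leading marker and -54.1 without cycling cells. Deep dermis at P0 (-23.7) moved to -18.3 with 2500 genes, -17.6 under gates and -27.9 both without a leading marker and without the sub-clusters whose leading genes are of another kind. The causes were not tested, except that the added CPM acts on low levels by construction. The lead of 0.2, the naming without a leading marker and the cycling-cell and sub-cluster alternatives, and the stalk, outer root sheath and deep dermis results, were added after seeing the data. No paired analysis was possible because each stage has 1 library. Depth limits statements on single cells and on genes with few UMIs, such as Tcf7 and Tcf7l1 in the epithelium.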

Other observations

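Among the classes not compared above, E13.5 tendon or cartilage-like cells (1043 cells) had 104 CPM of Tcf7l2 with 23.1 CPM of Lef1 and 5.32 of Tcf7. They include the sub-clusters of the dermal cells with 350, 194 and 150 cells. E13.5 muscle-like cells had 53.5 CPM of Lef1. E13.5 Schwann-like cells had 87.0 CPM of Lef1 and 44.0 of Tcf7, and the Schwann-like cells of E16.5 had 70.3 and 32.6 CPM. Melanocyte-like cells had 76.6, 80.7 and 27.0 CPM of Lef1 at E13.5, E16.5 and P0. E13.5 erythroid-like cells had 36.4 CPM of Lef1, above the 18.9 CPM of macrophage-like cells of that library, and the part of free RNA in this value was not tested.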
